A study of Mus musculus with 21 samples.

Results

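The results below concern 1 question: whether the loss of Tex15 altered RNA levels differently in newborn than in late fetal male germ cells of the mouse. The difference of the KO effect was (KO minus HT at D2.5) minus (KO minus HT at E18.5), on the log2 scale. It used 12 of the 21 libraries of the series, 3 in each of 4 groups, and the rows of both ages were joined by name. KO at D2.5 was Tex15-/- and HT at D2.5 was Tex15+/-, both from pups of 2.5 postnatal days in the sample labels (day 2 in the design text). KO at E18.5 was Tex15-/- and HT at E18.5 was Tex15+/-, both from embryos of day 18.5. All 4 groups were male, of mixed strain background and from matings between Tex15+/- parents. Germ cells were sorted by the green fluorescence of an Oct4-GFP reporter, and their RNA was amplified with NuGEN Ovation kits. HT was the comparator at both ages and itself carried 1 mutant allele. The labels call the 3 libraries of a group biological triplicates and do not say whether animals were pooled.

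TEX15 is a large nuclear protein of male germ cells. It is needed for recombination in meiosis and, earlier, for the silencing of mobile elements that PIWI proteins and their small RNAs direct in the fetal testis. In fetal mouse prospermatogonia, DNA methylation is erased and then rebuilt around birth, and young L1 and long terminal repeat (LTR) elements are the elements that need the PIWI-directed part of that rebuilding. LTR elements are relics or active copies of endogenous retroviruses: the IAP, ETn and MMERVK10C groups belong to the ERVK family, and elements of the murine leukaemia virus (MLV) type belong to ERV1. Major satellite, listed as GSAT_MM, is the tandem repeat next to mouse centromeres.

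Of 24495 gene rows, 1217 repeat names and 53 repeat families in the joined tables, 18251, 1140 and 52 passed the filter on low counts. Gene counts summed to 6063632 to 7391401 per library at D2.5 and to 7877665 to 11168905 at E18.5, and 7227 to 8279 genes were at 0 at D2.5 against 2359 to 2687 at E18.5. Repeat names took 58.58% to 69.38% of the counts at D2.5 and 49.9% to 60.18% at E18.5. The spread between replicate libraries, as the biological coefficient of variation of genes, was 52.1% at D2.5 and 17.9% at E18.5. KO replicate 3 at D2.5 stood apart from the other 11 libraries, at -116.8 on the second principal component of gene levels (7.71% of the variance), where the others ran from -7.1 to 54.8. The first component (66.3%) separated the ages. Each age has its own table, and age, table and any run that goes with them cannot be told apart. Each difference of the KO effect compares HT and KO within 1 table first. Levels are CPM, the counts per 1000000 gene counts of the library after scaling over the 12 libraries, for repeats as for genes.

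Tex15, the deleted gene, had 24.6, 24.1 and 16.8 CPM in KO libraries at D2.5, against 1800, 2210 and 1880 CPM in HT libraries. At E18.5 it had 2.88, 3.30 and 2.92 CPM in KO libraries, against 753, 823 and 825 CPM in HT libraries. All KO libraries lay far below all HT libraries at both ages. The KO effect was -6.49 at D2.5 (SE 0.22, edgeR adjusted p = 5.32e-13) and -8.01 at E18.5 (SE 0.19, edgeR adjusted p = 3.44e-12). The difference was 1.54 (SE 0.24, edgeR adjusted p = 0.0250), since residual Tex15 counts rose by 2.84 with age in KO (SE 0.19) and by 1.30 in HT (SE 0.15). This call passed in 3 of the 12 fits that left out 1 library.

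Repeated elements gave the clearest difference between the ages. Of 1140 repeat names tested, 24 had a KO effect that differed between D2.5 and E18.5 (edgeR adjusted p under 0.05), which is 2.11% of the names. Only the major satellite GSAT_MM had a difference above 0, and 23 names, chiefly LTR elements, had one below 0. Of these 23, 22 were raised in KO at E18.5, with single-age effects of 0.65 to 2.86. At D2.5 the KO and HT libraries overlapped for 20 of the 23. The median difference over all names tested was -0.33. These p-values rest on a spread that the fit shares almost wholly between rows (587 prior against 8 residual degrees of freedom). When each name was tested on its own spread, an alternative chosen after seeing the data, 15 names passed, 9 of them among the 24.

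GSAT_MM had 194, 306 and 251 CPM in KO libraries at D2.5, against 144, 168 and 85.6 CPM in HT libraries. The E18.5 values were 2360, 3000 and 1470 CPM in KO libraries, against 14900, 15800 and 15500 CPM in HT libraries. KO lay above HT at D2.5 and far below HT at E18.5, without overlap at either age. The KO effect was 0.92 at D2.5 (edgeR adjusted p = 0.0807) and -2.73 at E18.5 (edgeR adjusted p = 1.05e-37). The difference was 3.67 (SE 0.31, 95% interval 3.07 to 4.28, edgeR adjusted p = 1.14e-26), and it passed in all 12 fits that left out 1 library and on its own spread (adjusted p = 0.011). From E18.5 to D2.5 the level fell by 3.19 in KO (SE 0.23) and by 6.86 in HT (SE 0.27). The exact permutation test within ages gave a two-sided p of 0.005, the smallest that the 400 relabellings allow. At E16.5, on a scale set over all libraries of the series, GSAT_MM ran from 14.2 to 402 CPM in KO and from 3.86 to 2510 CPM in HT. When the E16.5 libraries entered the fit, the difference was 3.64 (SE 1.46) and no longer passed (edgeR adjusted p = 0.234).

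**Figure D1:**
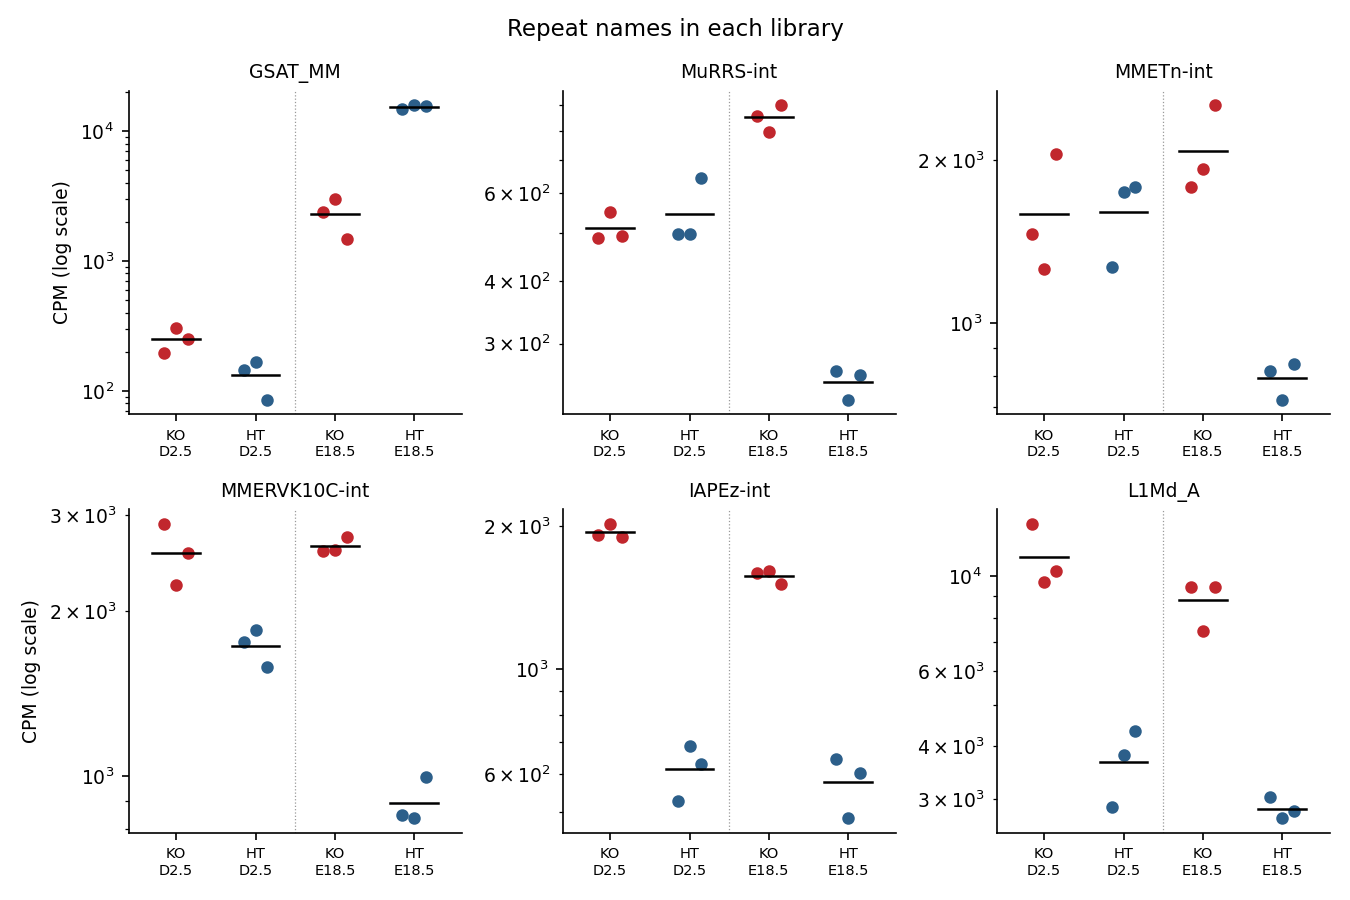
Level of 6 repeat names in each library, in CPM on a log scale whose range differs between panels, with KO in red, HT in blue, D2.5 left of the dotted line and E18.5 right of it, and bars at the group means. GSAT_MM is far below HT in KO at E18.5, MuRRS-int and MMETn-int separate KO from HT at E18.5 and overlap at D2.5, and IAPEz-int and L1Md_A separate them at both ages.

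Of 28 names tested in the MLV type and VL30 group, 8 passed, all below 0, where 2.11% of all names passed. MuRRS-int, an internal sequence of an MLV-related element, had 488, 550 and 492 CPM in KO libraries at D2.5, against 497, 496 and 643 CPM in HT libraries. At E18.5 the level was 855, 795 and 899 CPM in KO libraries, against 264, 232 and 260 CPM in HT libraries. The groups overlapped at D2.5 and lay well apart at E18.5. The difference was -1.85 (SE 0.29, edgeR adjusted p = 1.15e-07), and on its own spread the adjusted p was 0.00281. With age MuRRS-int rose by 1.11 in HT (SE 0.20) and fell by 0.74 in KO (SE 0.20). The difference also passed in edgeR for RLTR6-int (-1.41), MURVY-int (-1.37), MuRRS4-int (-1.28), RLTR6_Mm (-1.47), RLTR4_MM-int (-1.16) and MMVL30-int (-1.03). On their own spread RLTR6_Mm, RLTR4_MM-int and MMVL30-int passed, and RLTR6-int (adjusted p = 0.0507), MURVY-int (0.181) and MuRRS4-int (0.227) did not. RLTR45 (-1.25) was the 8th, because the name rule takes in every name that begins with RLTR4. RLTR4_MM-int did not overlap at D2.5 either, with 202, 223 and 273 CPM in KO libraries against 174, 156 and 154 CPM in HT libraries.

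Of the ERVK groups, 4 of 9 MMERVK10C and RLTR10 names, 2 of 6 IAP internal names, 2 of 11 IAP LTR names and 1 of 4 ETn and MusD names passed, all below 0. MMERVK10C-int, the coding part of a mobile ERVK element, had 2890, 2230 and 2550 CPM in KO libraries at D2.5, against 1760, 1850 and 1580 CPM in HT libraries. In E18.5 cells it had 2580, 2590 and 2730 CPM in KO libraries, against 849, 838 and 996 CPM in HT libraries. KO lay above HT at both ages, by less at D2.5, where the effect was 0.57 (edgeR adjusted p = 0.630) against 1.59 at E18.5 (edgeR adjusted p = 1.4e-15). Its KO level hardly changed with age (-0.04, SE 0.20), its HT level rose by 0.95 (SE 0.20), and the difference of the KO effect was -0.99 (SE 0.29, edgeR adjusted p = 0.0338). That call passed in 4 of 12 fits that left out 1 library. RLTR10-int (-1.43), RLTR10 (-1.20) and RLTR10C (-1.21) passed in all 12. On their own spread MMERVK10C-int (adjusted p = 0.024) and RLTR10-int (0.0181) passed, and RLTR10 (0.0537) and RLTR10C (0.13) did not.

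MMETn-int, from the ETn elements that cause many insertional mutations in laboratory mice, had 1460, 1260 and 2060 CPM in KO libraries at D2.5, against 1270, 1750 and 1790 CPM in HT libraries. Its E18.5 levels were 1790, 1930 and 2530 CPM in KO libraries, against 817, 723 and 840 CPM in HT libraries. The genotypes were intermixed at D2.5 and apart at E18.5, with a difference of -1.40 (SE 0.29, edgeR adjusted p = 0.000248). ETnERV-int had 162, 170 and 188 CPM in KO libraries at D2.5, against 120, 177 and 161 CPM in HT libraries. At the fetal age it had 493, 450 and 496 CPM in KO libraries, against 176, 153 and 177 CPM in HT libraries. Here the HT level was nearly level with age (-0.14, SE 0.21) and the KO level fell by 1.47 (SE 0.22), for a difference of -1.33 (SE 0.30, edgeR adjusted p = 0.00151). MMETn-int lies outside the ETn and MusD name rule. On its own spread ETnERV-int passed (adjusted p = 0.024) and MMETn-int did not (adjusted p = 0.0933).

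IAP names were divided. IAPEY3-int (-1.48, SE 0.28, edgeR adjusted p = 8.38e-05) and IAPLTR4_I (-1.85, SE 0.42, edgeR adjusted p = 0.00138) passed below 0, as did IAPEY2_LTR (-1.08) and IAPEY3_LTR (-1.07). On their own spread IAPEY3-int passed (adjusted p = 0.0104), and IAPLTR4_I (0.408), IAPEY2_LTR (0.354) and IAPEY3_LTR (0.177) did not. IAPEY2_LTR passed in 5 and IAPEY3_LTR in 3 of 12 fits that left out 1 library. IAPEY3-int had 381, 463 and 502 CPM in KO libraries at D2.5, against 366, 450 and 406 CPM in HT libraries. At E18.5 it had 1530, 1340 and 1430 CPM in KO libraries, against 465, 422 and 508 CPM in HT libraries. The KO level thus stood apart from HT at E18.5 and among the HT values at D2.5 but for 2 libraries slightly above them. IAPEz-int, the internal sequence of the most active IAP elements, did not follow: it had 1910, 2020 and 1890 CPM in KO libraries at D2.5, against 528, 688 and 629 CPM in HT libraries. The E18.5 values were 1590, 1610 and 1510 CPM in KO libraries, against 645, 485 and 604 CPM in HT libraries. KO lay above HT at both ages (1.66 at D2.5 and 1.47 at E18.5), and the difference was 0.21 with a 95% interval of -0.34 to 0.77 (edgeR adjusted p = 0.627). Its LTR, IAPLTR1_Mm, had effects of 2.36 at D2.5 and 1.94 at E18.5, with a difference of 0.45 (95% interval -0.17 to 1.07, edgeR adjusted p = 0.553).

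Of the 6 young mouse L1 names, 0 passed in edgeR. All 6 had a fitted difference below 0, as did 980 of all 1140 names (median -0.64, against -0.33 over all names). L1Md_A, a young L1 subfamily with active copies, had 13300, 9720 and 10300 CPM in KO libraries at D2.5, against 2870, 3810 and 4330 CPM in HT libraries. At E18.5 the level was 9430, 7460 and 9470 CPM in KO libraries, against 3030, 2710 and 2820 CPM in HT libraries. The effect was 1.60 at D2.5 and 1.65 at E18.5, and the difference was -0.02 with a 95% interval of -0.60 to 0.56. L1Md_Gf was also raised at both ages (1.16 at D2.5 and 1.75 at E18.5), with a difference of -0.56 (95% interval -1.12 to -0.00, edgeR adjusted p = 0.478). L1Md_T had 45800, 23000 and 35500 CPM in KO libraries at D2.5, against 41100, 26300 and 34900 CPM in HT libraries. In E18.5 cells it had 24700, 24900 and 25800 CPM in KO libraries, against 16400, 17100 and 17600 CPM in HT libraries. L1Md_T overlapped at D2.5 and not at E18.5, yet its difference of -0.53 (95% interval -1.13 to 0.07) did not pass (edgeR adjusted p = 0.508), nor did that of L1Md_F2 (-0.81, edgeR adjusted p = 0.181). Reads of related copies can be shared between these names.

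**Figure D2:**
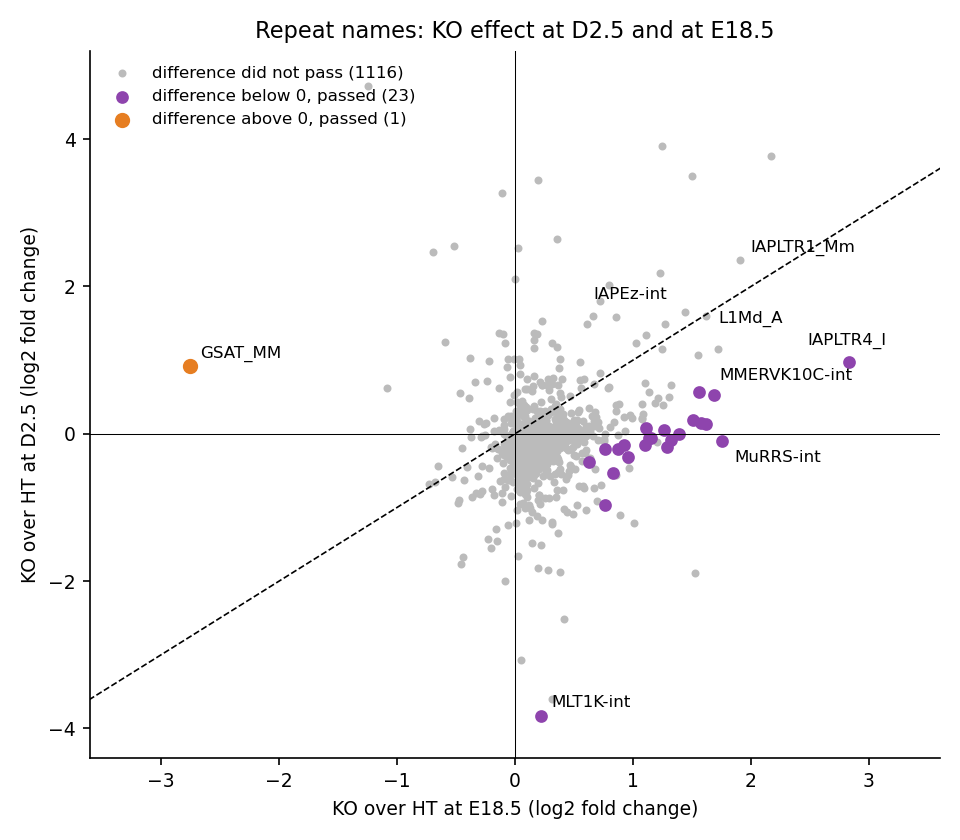
KO effect of repeat names at D2.5 (vertical axis) and at E18.5 (horizontal axis), as log2 fold changes of KO over HT in the 12-library fit, with the dashed line where both are equal; 1139 of the 1140 names lie within the axes. The 23 purple names with a passing difference below 0 lie right of 0 and under the dashed line, most of them near 0 on the vertical axis and MLT1K-int far below it, GSAT_MM (orange) lies far left, and IAPEz-int and L1Md_A lie near the dashed line.

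At E18.5, 113 of 1125 names tested at that age alone passed, 10% of them, and 111 of these were higher in KO. At D2.5, 11 of 1094 names passed (1.01%), all higher in KO, and 9 of the 11 were among the 111. Of the 111 names raised at E18.5, 100 had a fitted difference below 0, and 22 passed. Over all 1140 names tested for the difference, 980 lay below 0. The 111 were chosen by their E18.5 effect, which is subtracted in the difference, so values below 0 are favoured among them. Their median effect in the 12-library fit was 0.08 at D2.5 and 0.76 at E18.5, beside -0.17 and 0.15 over all names. All KO libraries exceeded all HT libraries at D2.5 for 20 of these 111 names (18%), against 3.33% of all names. The older rodent L1 names (0 of 27 passed, median -0.45), the ancient L1 names (0 of 56, median -0.32), the rodent SINE names (0 of 27, median -0.28), the 3 MERVL names (0 of 3, median -0.46) and the Charlie and Tigger DNA transposons (0 of 80, median -0.28) gave no call of the difference in edgeR. Together with the young L1 names these 6 groups hold 199 names tested, of which 8 had an unadjusted p under 0.05 and 0 passed in DESeq2 or limma-voom. Of 101 MaLR names 1 passed, MLT1K-int, on 0 to 61 counts per library. LTRIS_Mm (-1.20), LTRIS_Mus (-1.01), LTRIS2 (-0.96) and the DNA transposon Zaphod2 (-1.73) completed the 23.

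The zero of these differences depends on the library size. With the totals of the repeat names in place of the gene counts, the median difference over all names moved to -0.03, and 25 names passed, 4 above 0 and 21 below, of which 18 were among the 24. All 13 of the 23 names below 0 that passed in each of the 12 fits with 1 library left out were LTR elements. The permutation test within ages assumes no KO effect at either age and has 3 libraries a group. Over the 33 repeat names and families it was run on, its adjusted p was 0.165 or more. Its unadjusted p was 0.015 for MURVY-int, 0.02 for MuRRS4-int, 0.025 for MuRRS-int, 0.085 for IAPEY3-int, 0.145 for MMERVK10C-int and 0.275 for IAPLTR4_I.

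Among the 52 repeat families, 1 passed (1.92%), the family listed as NA, whose rows carry no family name. It had 77700, 85200 and 99900 CPM in KO libraries at D2.5, against 78300, 97000 and 98600 in HT libraries. Its E18.5 levels were 101000, 96900 and 117000 in KO libraries, against 53100, 42500 and 46200 in HT libraries. The groups overlapped at D2.5 and did not at E18.5, and the difference was -1.21 (SE 0.25, edgeR adjusted p = 0.000373). The L1, ERVK and ERV1 families were raised in KO at both ages: L1 stood at 1.62 at D2.5 and 1.87 at E18.5, ERVK at 2.09 and 1.59, and ERV1 at 1.46 and 1.77, in that order of ages. Their differences were -0.22 for L1 (95% interval -0.69 to 0.24), 0.52 for ERVK (0.03 to 1.01, edgeR adjusted p = 0.414) and -0.28 for ERV1 (-0.78 to 0.21). ERVK held 3740000, 4430000 and 4290000 CPM in KO libraries at D2.5, against 851000, 1100000 and 989000 in HT libraries. At E18.5 it held 2270000, 2420000 and 2520000 in KO libraries, against 849000, 699000 and 894000 in HT libraries. Family tables hold more counts than the name rows, 335343769 to 1254023075 per library at D2.5 and 250719898 to 1118719468 at E18.5, so their levels are not on the scale of the names. For KO against HT at 1 age, 4 families (7.69%) passed at D2.5 and 5 (9.62%) at E18.5.

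The Satellite family had 6100, 5650 and 6620 CPM in KO libraries at D2.5, against 4680, 5960 and 4710 in HT libraries. At the fetal age it had 4890, 4610 and 5590 in KO libraries, against 6690, 7100 and 7500 in HT libraries. The direction was that of GSAT_MM and the size was smaller, 0.76 (SE 0.24), which missed the threshold (edgeR adjusted p = 0.0701). It passed in 7 of 10 other settings, among them DESeq2 (adjusted p = 0.00612) and its own spread (adjusted p = 0.0404). Of the 12 fits that left out 1 library it passed in 1, with an edgeR adjusted p of up to 0.363. The differences of ERVL (-0.28), MaLR (-0.47) and, among SINEs, of Alu (-0.23), B2 (-0.20) and B4 (-0.28) lay close to the median of all families (-0.25). With the totals of the family table as library sizes the median moved to 0.23, 6 families passed, 5 of them above 0, among them Satellite (1.27, adjusted p = 0.00115) and ERVK (1.01, adjusted p = 0.00621), and L1, ERV1, ERVL, Alu, B2 and B4 changed sign.

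**Figure D3:**
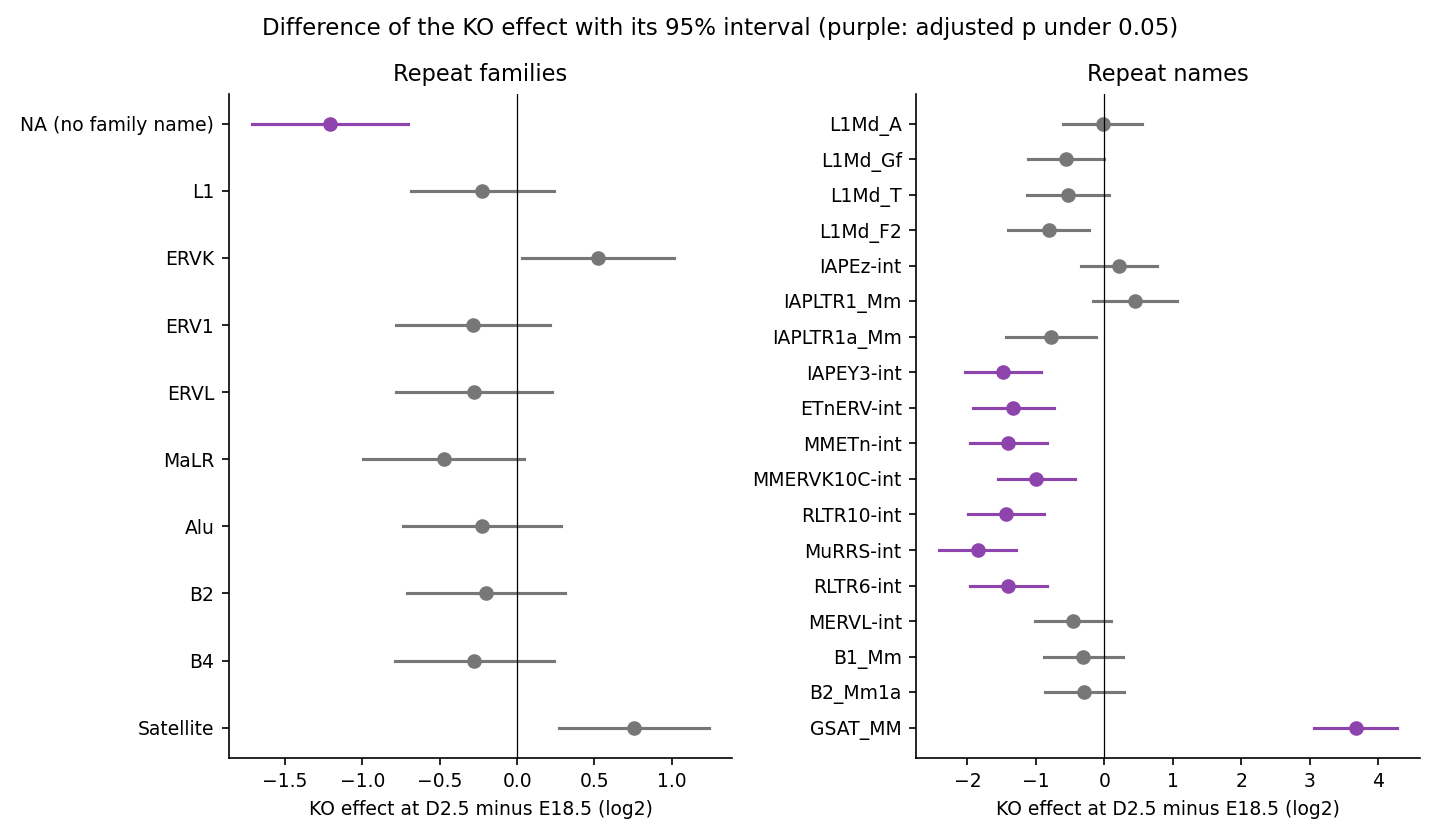
Difference of the KO effect between D2.5 and E18.5 (log2) for 10 repeat families (left) and 18 repeat names (right), with 95% intervals from the 12-library edgeR fit; purple marks an adjusted p under 0.05. The NA family and 7 LTR names lie left of 0, GSAT_MM lies at 3.67, and the intervals of L1, L1Md_A, IAPEz-int and the SINEs include 0.

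Among genes few differences passed, which does not show that differences were rare. Of 18251 genes tested 12 passed, 10 above 0 and 2 below, which is 0.0657% of the genes, and 1759 had an unadjusted p under 0.05. The split by direction depended on the test: DESeq2 called 103 above 0 and 99 below, and the test on each gene's own spread called 21 above 0 and 55 below. The median standard error of a gene's difference was 0.77, with a 95% interval of 1.63 on either side for the median gene. That interval belongs to an unadjusted p of 0.05. A call needed more, since the largest unadjusted edgeR p among the 12 was 2.81e-05. For the median gene, a difference well beyond 1.63 could thus also go uncalled. At D2.5 alone 28 of 13343 genes passed (0.210%), 27 of them higher in KO, and at E18.5 alone 389 of 18199 passed (2.14%), 377 of them higher. Left out 1 at a time, the 12 libraries gave 2 to 18 calls of the difference. Each fit without an E18.5 library gave the same 2, Samd9l and Gpr179. KO replicate 3 at D2.5, which stood apart, was also left out: without it 12 genes passed, 8 of them the same.

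Samd9l, an interferon-inducible gene that restrains cell growth and virus replication, had 151, 116 and 96.6 CPM in KO libraries at D2.5, against 0.371, 1.62 and 0.906 CPM in HT libraries, which is 2, 10 and 5 counts in HT. At E18.5 it had 11.7, 20.0 and 21.2 CPM in KO libraries, against 9.29, 8.26 and 7.38 CPM in HT libraries. KO was above HT at both ages, by far more at D2.5. The KO effect was 6.91 at D2.5 (edgeR adjusted p = 1.14e-07) and 1.12 at E18.5 (edgeR adjusted p = 0.0194), and the difference was 5.83 (SE 0.55, edgeR adjusted p = 0.000293). With age the level rose by 2.78 in KO (SE 0.34) and fell by 3.06 in HT (SE 0.43). On the scale set over all libraries, WT at D2.5 held 3.53 to 14.9 CPM, above each HT library (0.363 to 1.52 CPM) and below each KO library (91.3 to 145 CPM). At E16.5, KO held 23.3 to 27.8 CPM and HT 7.53 to 23.4 CPM.

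Gpr179, an orphan receptor known from the retina, had 48.0, 102 and 88.4 CPM in KO libraries at D2.5, against 0, 0.486 and 0.181 CPM in HT libraries (0, 3 and 1 counts). The E18.5 values were 132, 112 and 102 CPM in KO libraries, against 16.2, 20.9 and 21.1 CPM in HT libraries. The difference was 5.75 (SE 0.63, edgeR adjusted p = 0.00119). Its KO level was nearly level with age (-0.54, SE 0.30), while the HT level fell by 6.29 (SE 0.52). On the scale set over all libraries, WT at D2.5 held 0.736 to 2.12 CPM, above each HT library (0 to 0.457 CPM) and below each KO library (46.1 to 97.7 CPM). The sequences before the start of both genes are given because these are the gene calls that held in each fit with a library left out. They are the 250 bases before the annotated start in RefSeq (GRCm38.p6, minus strand, read 5′ to 3′), with each CG dinucleotide, the site of DNA methylation in mammals, in capitals. The Samd9l stretch lies at chr6:3399572-3399821 and the Gpr179 stretch at chr11:97352357-97352606.
Samd9l: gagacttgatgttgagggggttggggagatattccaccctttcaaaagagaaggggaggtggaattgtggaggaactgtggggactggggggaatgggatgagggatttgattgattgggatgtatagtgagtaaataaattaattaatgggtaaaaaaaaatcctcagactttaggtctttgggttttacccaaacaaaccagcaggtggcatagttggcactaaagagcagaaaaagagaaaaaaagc
Gpr179: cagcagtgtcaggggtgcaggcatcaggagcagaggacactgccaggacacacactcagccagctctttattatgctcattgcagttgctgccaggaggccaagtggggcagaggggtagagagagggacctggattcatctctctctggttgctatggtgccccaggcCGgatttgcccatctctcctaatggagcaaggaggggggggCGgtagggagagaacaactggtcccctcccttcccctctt
CG was searched on 1 strand, since it reads the same on both. The Samd9l stretch holds 0 and the Gpr179 stretch 2, where the median of 32851 annotated promoters of that length is 6. Of these promoters 7.87% hold 0 and 29% hold 2 or fewer. For 10 of the 12 genes an entry was found, and their counts ran from 0 (Samd9l and Asb12) to 24 (Trmt61a).

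**Figure D4:**
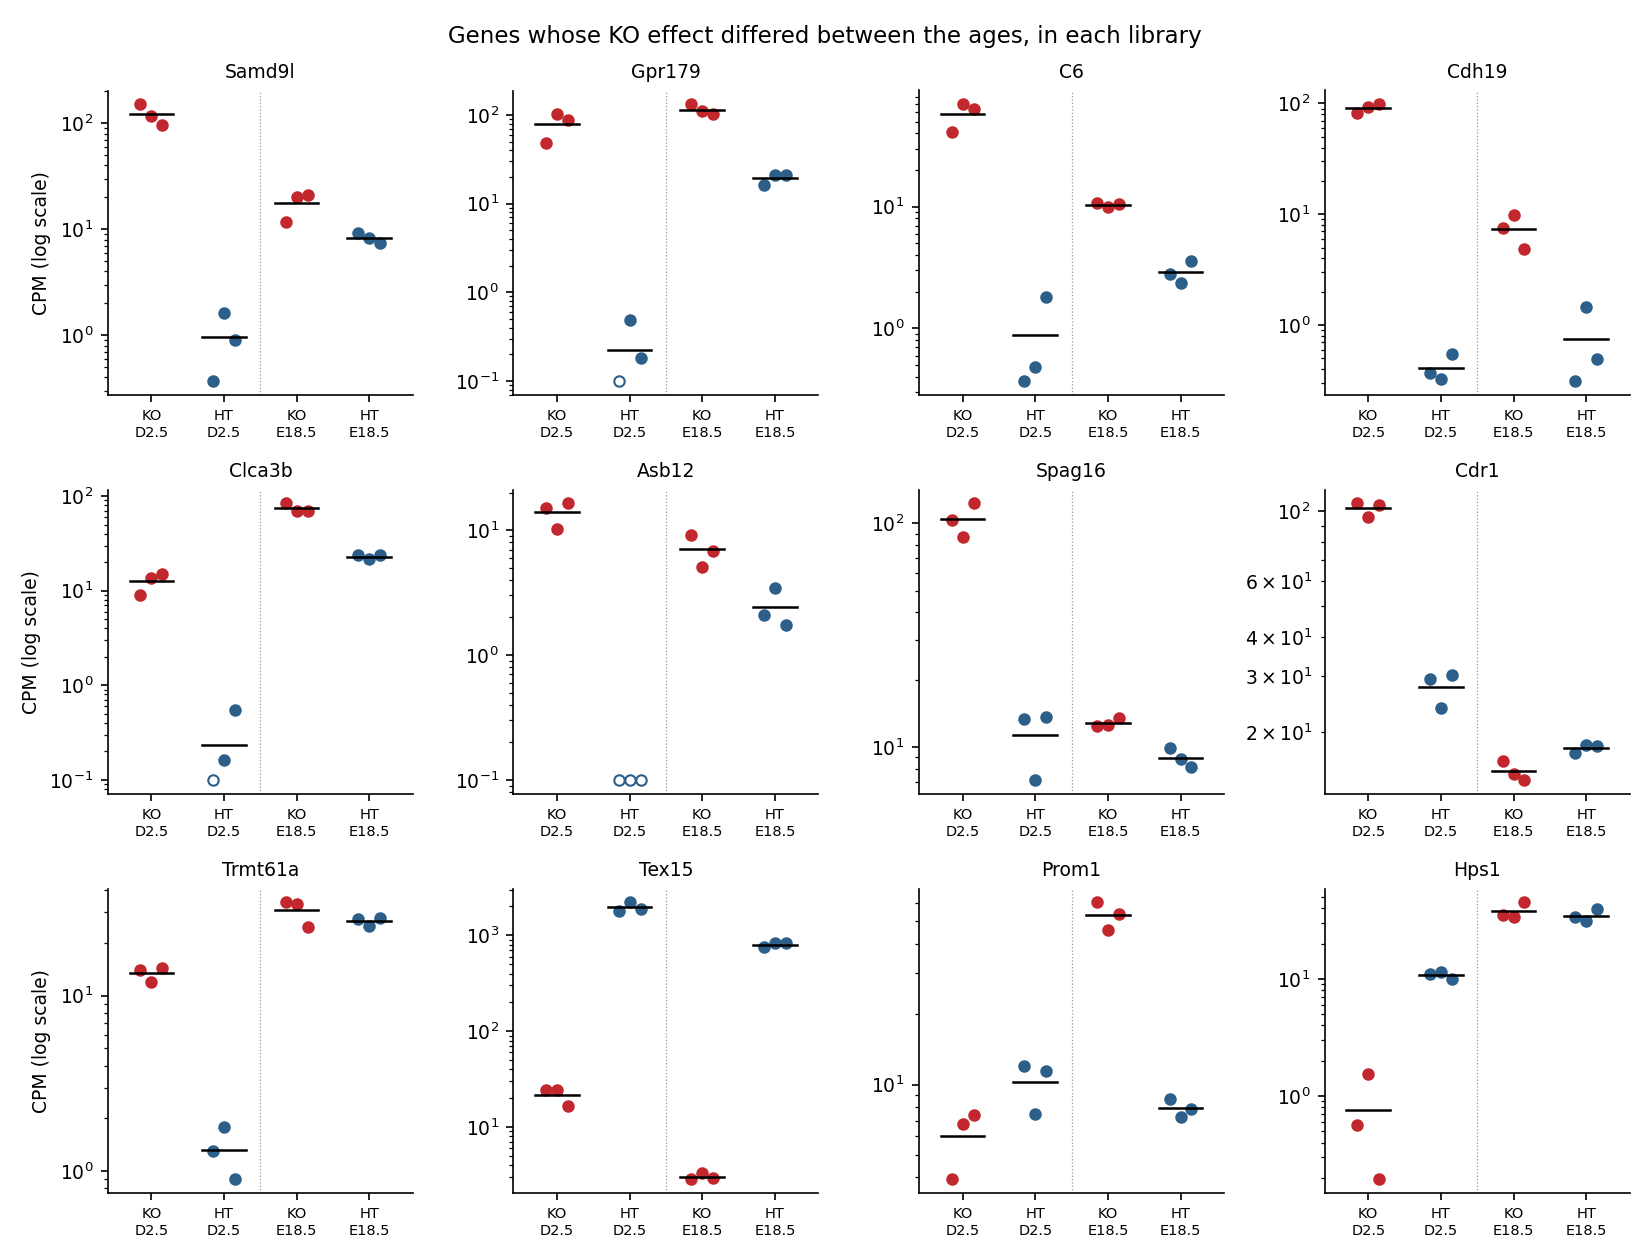
Level of the 12 genes with a passing difference in each library, in CPM on a log scale whose range differs between panels, with KO in red, HT in blue, D2.5 left of the dotted line and E18.5 right of it; bars are group means, and open circles at 0.1 stand for 0 counts. In Samd9l, Gpr179, C6, Cdh19, Clca3b and Asb12, KO lies above HT at both ages and the HT level is lowest at D2.5. In Prom1 KO lies above HT at E18.5 and narrowly below it at D2.5, where the effect did not pass.

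A further 5 genes, C6, Cdh19, Clca3b, Asb12 and Spag16, had KO above HT at both ages with a wider gap at D2.5. C6, a component of the complement membrane attack complex, had 40.7, 69.2 and 63.8 CPM in KO libraries at D2.5, against 0.371, 0.486 and 1.81 CPM in HT libraries. At E18.5 the level was 10.7, 9.91 and 10.5 CPM in KO libraries, against 2.82, 2.37 and 3.57 CPM in HT libraries. Its difference was 4.18 (SE 0.68, edgeR adjusted p = 0.0392), and no KO library came near HT at either age. Cdh19, a cadherin of neural crest derivatives, had 81.2, 92.9 and 98.2 CPM in KO libraries at D2.5, against 0.371, 0.324 and 0.544 CPM in HT libraries. In E18.5 cells it had 7.48, 9.91 and 4.90 CPM in KO libraries, against 0.313, 1.45 and 0.498 CPM in HT libraries. Its difference was 4.51 (SE 0.75, edgeR adjusted p = 0.0397), with KO rising by 3.61 with age and HT changing by -0.90. Clca3b, one of a cluster of related Clca genes between which reads may be shared, had 9, 13.7 and 14.9 CPM in KO libraries at D2.5, against 0, 0.162 and 0.544 CPM in HT libraries. Its E18.5 levels were 83.7, 68.8 and 69.3 CPM in KO libraries, against 23.7, 21.5 and 23.6 CPM in HT libraries. It fell with age in both genotypes, by 2.56 in KO and by 6.52 in HT, and its difference was 3.96 (SE 0.67, edgeR adjusted p = 0.0428).

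Asb12, which encodes a protein with ankyrin repeats and a SOCS box, had 15, 10.2 and 16.4 CPM in KO libraries at D2.5, against 0 counts in all 3 HT libraries. With a floor of 3 counts per HT library, KO at D2.5 was at least 26.3-fold higher. At the fetal age it had 9.20, 5.05 and 6.79 CPM in KO libraries, against 2.09, 3.44 and 1.74 CPM in HT libraries. The fitted difference of 8.32 (edgeR adjusted p = 0.0428) depends on how the fit treats the zeros. On its own spread, as log2(CPM + 0.5), it was 3.45 (SE 0.39, adjusted p = 0.0124). The calls of Cdh19 and Asb12 each passed in 0 of 12 fits that left out 1 library, that of Clca3b in 1 and that of C6 in 2, with edgeR adjusted p of up to 0.282, 0.240, 0.249 and 0.183.

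Spag16, which encodes a protein of the central apparatus of the sperm tail, had 104, 87.3 and 123 CPM in KO libraries at D2.5, against 13.3, 7.12 and 13.6 CPM in HT libraries. At E18.5 it had 12.4, 12.6 and 13.5 CPM in KO libraries, against 9.91, 8.87 and 8.13 CPM in HT libraries, and that effect did not pass (0.55, edgeR adjusted p = 0.313). Here the KO level rose by 3.03 with age (SE 0.30) and the HT level changed by 0.34 (SE 0.29), for a difference of 2.70 (SE 0.41, edgeR adjusted p = 0.0250). Cdr1 had 106, 95.8 and 105 CPM in KO libraries at D2.5, against 29.5, 23.8 and 30.3 CPM in HT libraries. The E18.5 values were 16.2, 14.7 and 14.1 CPM in KO libraries, against 17.2, 18.2 and 18.1 CPM in HT libraries. KO was above HT at D2.5 and slightly below it at E18.5, where the effect did not pass (-0.22, edgeR adjusted p = 0.881). The difference was 2.12 (SE 0.32, edgeR adjusted p = 0.0250). Trmt61a, the catalytic part of a tRNA methyltransferase, had 13.9, 11.9 and 14.3 CPM in KO libraries at D2.5, against 1.30, 1.78 and 0.906 CPM in HT libraries. At E18.5 the level was 33.9, 33.2 and 24.4 CPM in KO libraries, against 27.4, 24.8 and 27.7 CPM in HT libraries, where the groups overlapped. The difference was 3.11 (SE 0.52, edgeR adjusted p = 0.0397), while the effect at D2.5 alone did not pass (3.31, edgeR adjusted p = 0.185).

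The genes with a difference below 0 were Prom1 and Hps1. Prom1, the stem cell surface protein CD133, had 3.94, 6.75 and 7.43 CPM in KO libraries at D2.5, against 12, 7.45 and 11.4 CPM in HT libraries. In E18.5 cells it had 60.3, 46.1 and 53.8 CPM in KO libraries, against 8.66, 7.26 and 7.88 CPM in HT libraries. The KO level fell by 3.14 with age (SE 0.38) and the HT level changed by 0.38 (SE 0.35). The KO effect was 2.78 at E18.5 (edgeR adjusted p = 1.97e-06). At D2.5 it did not pass (-0.76, edgeR adjusted p = 0.941), and the nearest KO and HT libraries had 7.43 and 7.45 CPM. The difference was -3.52 (SE 0.51, edgeR adjusted p = 0.0250). Hps1, a subunit of a complex that forms lysosome-related organelles, had 0.563, 1.54 and 0.196 CPM in KO libraries at D2.5, against 10.9, 11.5 and 9.97 CPM in HT libraries. Its E18.5 levels were 35.1, 33.7 and 45.0 CPM in KO libraries, against 33.7, 30.9 and 39.4 CPM in HT libraries. KO was below HT at D2.5 and among it at E18.5, and the difference was -3.92 (SE 0.63, edgeR adjusted p = 0.0356). The effect at D2.5 alone did not pass (-3.77, edgeR adjusted p = 0.223). Outside the contrast, WT at D2.5 held 3.08 to 5.99 CPM of Hps1 and 1.06 to 4.11 CPM of Prom1. For both genes that is below each HT library of that age on the same scale. On it KO at D2.5 held 0.185 to 1.48 CPM of Hps1 and 3.78 to 7.02 CPM of Prom1.

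Of these genes Prom1, Cdr1, Spag16, Hps1 and Clca3b overlap a gene on the opposite strand in a GRCm38 annotation, and whether the counting used strand is not given in the sources used here. For Cdr1 that gene is the noncoding RNA C230004F18Rik, so its counts cannot be told from those of the antisense transcript. Leaving out 1 library kept the calls of Spag16 and Cdr1 in 5 of 12 fits, of Trmt61a in 3, of Prom1 in 6 and of Hps1 in 4. All 12 calls passed when each gene was tested on its own spread, in a fit that called 76 genes.

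Genes called at 1 age were followed to the other. Of 369 genes raised in KO at E18.5 and tested in the joint fit, 164 passed the filter at D2.5 alone. Of these 17 were called higher there, where 0.210% of all genes were called. A further 58 had no counts in any D2.5 library. The KO libraries exceeded all HT libraries at D2.5 for 69 of the 369 (18.7%), against 5.57% of all genes. The median effect of the 369 in the joint fit was 0.44 at D2.5 and 1.77 at E18.5, beside 0 and -0.03 over all genes. The difference passed for 7 of them, 6 above 0 and 1 below. Conversely, of 27 genes raised in KO at D2.5, 17 were called higher at E18.5, where 2.14% of all genes were called. Of the 27, 26 had a fitted E18.5 effect above 0, against 43.8% of all genes. The difference passed for 8 of them, and for 0.0657% of all genes. Both sets were chosen by an effect that enters the difference, so these passing differences are not separate support. Called at both ages were 18 genes, 17 higher and Tex15 lower, and 0 in opposite directions.

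Apart from genes whose difference passed, 5 named genes were raised at both ages with a difference that did not pass. Cdh12, a cadherin of the nervous system, had 317, 275 and 250 CPM in KO libraries at D2.5, against 9.45, 25.6 and 12.9 CPM in HT libraries. At the fetal age it had 21.3, 22.4 and 32.5 CPM in KO libraries, against 5.95, 8.10 and 10.4 CPM in HT libraries. Its difference was 2.49 (SE 0.45, edgeR adjusted p = 0.0708). Cyp4a12b, a fatty acid hydroxylase with near-identical relatives, had a difference of 4.45 (edgeR adjusted p = 0.210), the taste transducer Gnat3 of 2.39 (0.421), the peptide transporter Slc15a2 of 2.43 (0.447) and the peptidase Dpp4 of 1.90 (0.317). All 5 were above HT in every KO library at both ages. Below 0, the named genes of smallest p that did not pass were Camk2b (-2.59, edgeR adjusted p = 0.0823), the mannose receptor Mrc1 (-2.05, 0.126), Fxyd5 (-1.90, 0.142) and Mcc (-2.02, 0.145).

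**Figure D5:**
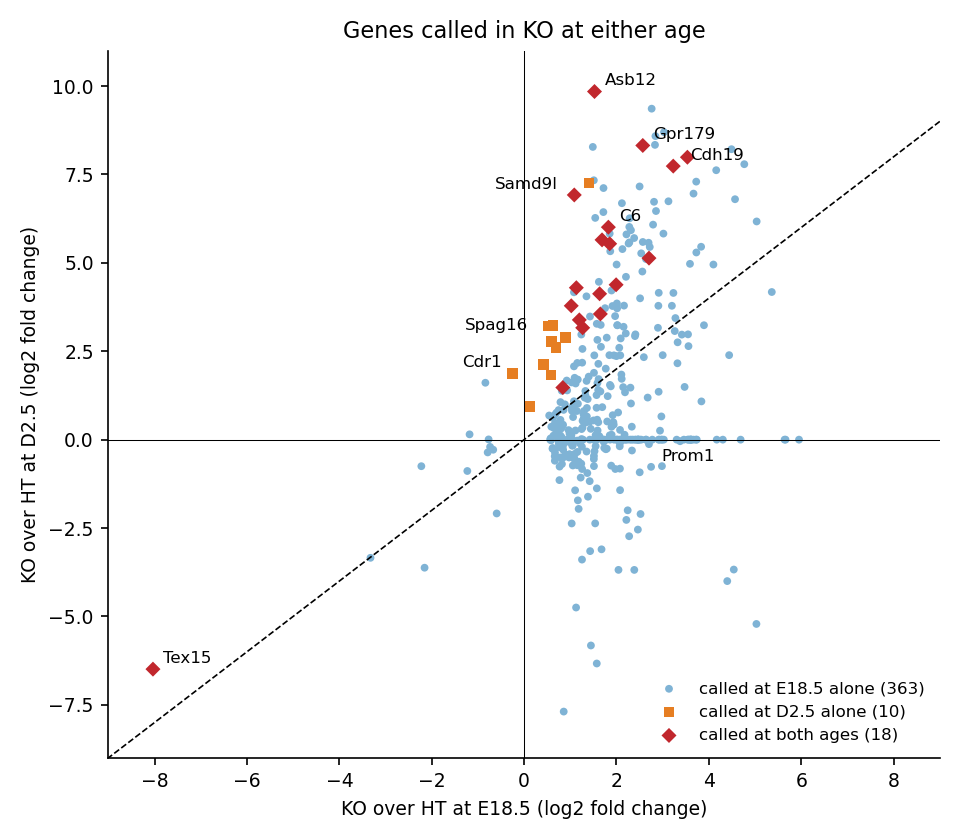
KO effect at D2.5 (vertical axis) and at E18.5 (horizontal axis), as log2 fold changes of KO over HT in the joint fit, for the genes called at either age; the dashed line marks equal effects. Of the 363 genes called at E18.5 alone (blue) many lie at or near 0 on the vertical axis, among them the 58 without counts at D2.5, while 17 of the 18 called at both ages (red) lie above 0 on both axes and Tex15 lies below 0 on both.

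The gene lists gave 1 call, Samd9l in the interferon-stimulated list (1 of 28 tested, median -0.14, against 0.02 over all genes tested). Parp14 (-1.23, edgeR adjusted p = 0.253), Bst2 (5.16, 0.434) and Ifit1 (4.44, 0.469) of that list did not pass, and 15 of its genes were too low to be tested at D2.5 alone. Of the nucleic acid sensors 0 of 21 passed (median 0.07), with Ripk3 at 1.82 (edgeR adjusted p = 0.256) and the RNA sensor Ifih1 at 2.01 (0.552). The piRNA pathway had 0 of 24 (median -0.18): Gtsf1, a partner of PIWI proteins, had 62.6, 65.7 and 77.1 CPM in KO libraries at D2.5, against 51.9, 57.2 and 76.1 CPM in HT libraries. At E18.5 Gtsf1 had 42.6, 50.7 and 40.6 CPM in KO libraries, against 90.6, 110 and 103 CPM in HT libraries, and its difference was 1.33 (edgeR adjusted p = 0.178). The DNA methylation machinery had 0 of 17 (median 0.14), H3K9 methylation and KRAB repression 0 of 22 (-0.04) and the methylation-sensitive germline genes 0 of 22 (-0.01). Over the 31 lists and gene families with 0 calls, 135 of 1325 list entries tested (a gene on 2 lists counts in each) had an unadjusted p under 0.05, DESeq2 called 14 entries and limma-voom 2. A count of 0 does not show that a list did not differ, since the intervals of single genes are wide.

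Fetal germ cell and pluripotency genes had 0 of 25 (median -0.42), with Pou5f1 at 2.45 (edgeR adjusted p = 0.437) and Dppa3 at 3.61 (0.449). Spermatogonial stem cell genes had 0 of 23 (median 0.06), differentiation genes 0 of 20 (-0.11; Kit -0.86, 0.475), meiotic prophase genes 0 of 25 (-0.10), cell cycle genes 0 of 27 (0.11) and p53 targets 0 of 24 (0.25). Immediate early and stress genes (0 of 25, median 0.33), imprinted genes (0 of 24, 0.26) and MERVL-linked genes (0 of 9, -1.33) completed the lists. Of the gene families chosen by name, the chemosensory receptors had calls against HT at E18.5 and not at D2.5. Of 120 olfactory receptor genes tested at E18.5, 34 were called higher in KO and 1 lower, where 2.14% of all genes were called. At D2.5, where 0.210% of all genes were called, 0 of 24 were called in edgeR. Of 1125 olfactory receptor rows, 124 passed the filter of the joint fit. Over these the median effect was 0.00 at D2.5 and 0.90 at E18.5, and the difference passed for 0 (median -0.77). Vomeronasal receptor genes had 21 calls of 56 at E18.5 and 0 of 10 at D2.5. Of their 330 rows 54 passed the joint filter, and 0 of 54 differences passed (-0.66). A gene can pass the filter through 1 group in which it is high. Few of these receptors could be tested at D2.5, so the median of 0.00 there does not show a lack of effect. Cytochrome P450 genes had 10 calls of 75 at E18.5 and 2 of 24 at D2.5 (0 of 75 differences, -0.47), and organic anion transporters had 3 of 14 at E18.5 and 1 of 5 at D2.5 (0 of 14 differences, 0.39). Serpins (0 of 38, -0.40), ADAM genes (0 of 47, -0.32), Zfp genes (0 of 364, 0.10), Hox genes (0 of 28, 0.39), histone genes (0 of 33, 0.20), ribosomal proteins (0 of 83, 0.21) and the respiratory chain (0 of 95, 0.25) gave no call of the difference in edgeR.

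Markers of other testis cells were present at low levels. The summed level separated the genotypes without overlap for macrophage and blood markers at E18.5, chiefly through the single gene Mrc1. Macrophage and blood markers summed to 70.4 to 114 CPM in KO and 82.7 to 99.9 CPM in HT at D2.5, and to 64.5 to 82.2 CPM in KO and 30.8 to 34 CPM in HT at E18.5. Mrc1 averaged 51.1 CPM in KO and 14.8 CPM in HT at E18.5, and Adgre1 8.44 and 3.19 CPM. Ptprc (3.73 CPM in KO and 2.6 CPM in HT), Csf1r (2.39 and 1.83) and C1qa (0.534 and 0.385) were higher in KO too. Cd68 went the other way, with 5.41 CPM in KO and 6.99 CPM in HT, as did Cd14 and C1qb at lower levels. Lyz2 and Cx3cr1 were nearly equal in the genotypes. The haemoglobin genes Hba-a1 and Hbb-b1 were at 0 in all 12 libraries. Stromal markers summed to 348 to 855 CPM in KO and 238 to 383 CPM in HT at D2.5, and to 271 to 330 CPM in KO and 277 to 320 CPM in HT at E18.5. Col1a2 had a difference of 1.69 (edgeR adjusted p = 0.317). Of 12 stromal markers tested, 9 had a fitted difference above 0 and 3 below (median 0.61). At D2.5 the other stromal markers, among them Col3a1 (153 CPM in KO and 66.2 CPM in HT) and Dcn (47.4 and 16.7), were higher in KO. Tagln (3.12 CPM in KO and 13.2 CPM in HT), Postn (5.94 and 14.7) and Pdgfrb (0.966 and 2.95) were lower in KO at D2.5. Sertoli markers had 8 differences above 0 and 4 below, Leydig markers 3 and 8, and endothelial markers 5 and 6. Sertoli markers summed to 124 to 352 CPM in KO and 149 to 172 CPM in HT at D2.5, Leydig markers to 87.4 to 194 CPM in KO and 139 to 172 CPM in HT, and endothelial markers to 136 to 167 CPM in KO and 141 to 153 CPM in HT. Germ cell markers summed to 4300 to 6520 CPM in KO and 5220 to 5650 CPM in HT at D2.5, and to 1800 to 2150 CPM in KO and 2090 to 2450 CPM in HT at E18.5. None of the 62 genes on the 6 marker lists that could be tested passed for the difference in edgeR. The part of these cells in the gene calls was not tested. In sorted cells measured as a whole, fewer cells of a type and less RNA per cell cannot be told apart.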

How the data were processed

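RNA-seq libraries of sorted mouse germ cells were compared, 12 of 21, with 3 in each of 4 groups. The deposited tables hold whole-number read counts per gene, repeat name and repeat family, made by the authors with 1 table per age. STAR, Bowtie, featureCounts, edgeR and the build mm9 are named per the submitters' processing notes, and their versions, their roles, strand use and the treatment of reads that fit several places remain not given in the sources used here. Such reads can be shared between near-identical copies.

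The tables of both ages were joined by row name, and every column used was matched to a sample (0 were not). Genes were kept by edgeR's filter (minimum count 10, minimum total 15), repeat names and families if 3 or more libraries held 10 reads or more. edgeR 4.0.16 (R 4.3.3) fitted its quasi-likelihood test to the 12 libraries with TMM factors of the gene counts, also for repeats, and the difference of the KO effect was the contrast between ages. Single-age effects came from fits of 6 libraries. P-values were adjusted by Benjamini-Hochberg over all rows of a table, with a threshold of 0.05. For the exact permutation test and the test on each row's own spread, log2(CPM + 0.5) was used. Gene counts per library ran from 6063632 to 11168905. P-values measure the spread between these libraries only. The test was tested on simulated data. Of 200 well-counted genes given a known difference, it recovered 0 at 2-fold, 1 at 4-fold and 183 at 16-fold.

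Genes were named by rule: up to 12 passing genes per direction by size of the difference, filled up to 6 by p, up to 8 called at both ages, and 1 to 3 of each list, with predicted gene models counted only. The 21 gene lists (399 genes), the gene families by name and the repeat name groups (24 name rules in all) and the members were chosen with earlier results of these data known. Alternatives were DESeq2 1.42.0, limma-voom (limma 3.58.1), other scalings, filters and libraries, a replicate block and leaving out each library. Figures were drawn with Python 3.11.15 and matplotlib 3.10.9. Promoter sequences are from RefSeq (GRCm38.p6).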

Additional observations from a re-analysis of the deposited data

Results flagged for a closer look

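The results listed here differed between the ages by edgeR's test of the difference itself, and the values are the KO effect at D2.5 minus that at E18.5 on the log2 scale. With 3 libraries a group, single values were not tested for standing apart within their group. The genes above 0 were Samd9l (5.83), Gpr179 (5.75), Cdr1 (2.12), Spag16 (2.70), Tex15 (1.54), C6 (4.18), Trmt61a (3.11), Cdh19 (4.51), Clca3b (3.96) and Asb12 (8.32). The fitted value of Asb12 depends on how the fit treats 0 counts. The genes below 0 were Prom1 (-3.52) and Hps1 (-3.92). Among repeat names GSAT_MM had a difference of 3.67.

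The LTR names that passed in each fit with 1 library left out were MuRRS-int (-1.85), IAPEY3-int (-1.48), RLTR10-int (-1.43), MMETn-int (-1.40), RLTR6-int (-1.41), MURVY-int (-1.37), MuRRS4-int (-1.28), IAPLTR4_I (-1.85), ETnERV-int (-1.33), RLTR45 (-1.25), RLTR6_Mm (-1.47), RLTR10C (-1.21) and RLTR10 (-1.20). The other names below 0 were RLTR4_MM-int (-1.16), MMVL30-int (-1.03), LTRIS_Mm (-1.20), MMERVK10C-int (-0.99), LTRIS_Mus (-1.01), IAPEY2_LTR (-1.08), IAPEY3_LTR (-1.07), Zaphod2 (-1.73), MLT1K-int (-4.05) and LTRIS2 (-0.96). MLT1K-int rests on 0 to 61 counts per library. Of the families, the one listed as NA had a difference of -1.21.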

How the results depend on the processing

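Genes with a passing difference numbered 12 in edgeR. There were 202 in DESeq2 (103 above 0, 99 below), 3 in limma-voom with 1 weight per age, 4 with edgeR's newer method, 3 with the WT libraries of D2.5 in the fit, 76 on each gene's own spread (21 above 0, 55 below, a test chosen after seeing the data) and 2 to 18 with 1 library left out. Repeat names numbered 24 in edgeR, 15 on their own spread and 14 to 61 with 1 library left out. The 61 came without HT replicate 1 at D2.5, and 47 came without KO replicate 3 at D2.5. The family count of 1 was 2 in DESeq2, in limma-voom with 1 weight per age, with E16.5 libraries, with WT libraries and on its own spread, 6 with family totals as library sizes, and 1 to 2 with 1 library left out. In the 5 named settings with 2, the added family was Satellite. Genes called in KO at E18.5 (389) ran from 197 to 392 with 1 library left out. Those at D2.5 (28) ran from 16 to 32, and DESeq2 called 114.

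Replicate numbers gave no clear pairing at D2.5. There deviations of same-numbered libraries correlated at 0.0243, -0.0151 and 0.0171, and those of other numbers at -0.0476 to 0.0333. At E18.5 same numbers correlated at 0.23, 0.143 and 0.0904, and other numbers at -0.251 to 0.119. Only HT replicate 3 there correlated better with another number (0.119 with KO replicate 2, against 0.0904 with its own). Whether the numbers mark pairs at E18.5 was not tested, and the main fit used no pairing. With a replicate block, KO against HT at E18.5 gave 531 genes in edgeR, beside 389 without it. For the difference, the block gave 0 genes in edgeR (1822 at an unadjusted p under 0.05), 69 repeat names and 3 families.

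Signs turned with repeat totals as library sizes for L1Md_A (0.38) and B2_Mm1a (0.021), and with family totals for L1 (0.33), ERV1 (0.23), ERVL (0.21), Alu (0.24), B2 (0.25) and B4 (0.19). With 1 library left out L1Md_A ran from -0.23 to 0.11. GSAT_MM kept its direction in all of these settings. The cause of these changes was not tested, other than that each leave-out fit has fewer libraries. Genes at D2.5 have fewer counts than at E18.5, which limits what could be detected there.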
